A study of Mus musculus with 11 samples.

Results

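The cells described here are cells of the embryonic dorsal cortex that carried Tfap2d mRNA above a set limit. They are called neurons for short, although groups 2 and 5 described below (125 and 23 cells) also carried progenitor genes. A cell was taken as a Tfap2d-positive neuron when it held at least 2 unique molecular identifiers (UMIs, 1 per captured mRNA molecule) of Tfap2d and at most 1 UMI summed over the interneuron genes Dlx1, Dlx2, Dlx5 and Dlx6os1, among cells with at least 1000 detected genes and at most 10% mitochondrial UMIs. This rule found 463 of the 16335 cells kept, 147 in the WT library and 316 in the cKO library. Tfap2d encodes AP-2δ, a member of the AP-2 family of DNA-binding transcription factors, which act as dimers on GC-rich elements in the control regions of genes. AP-2δ is best known for its requirement in the developing midbrain, and its transcript also marks restricted sets of neurons in the forebrain. Newborn glutamatergic neurons of the cortex arise from apical progenitors through Eomes-expressing intermediate progenitors, migrate outwards and then switch on the genes of their region and layer.

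The study asked what the RNA-binding protein Syncrip does in cortical neurogenesis. Dorsal cortex was dissected at E14.5 from a pair of littermates, 1 WT and 1 Syncrip cKO, on a C57BL/6 background, and each was made into 1 droplet-based 3′ single-cell library. The cKO carried loxP sites around Syncrip exons 2, 3 and 4 and Emx1-Cre, which is active in dorsal telencephalic progenitors and their offspring. Recombination was not measured in these libraries. With 1 embryo per genotype there were no replicates: no difference between the libraries was tested, genotype cannot be told apart from the embryo, its dissection or its library, and every interval below covers counting error only. Sequencing gave 100172392 UMIs over 8289 WT barcodes and 111313526 UMIs over 9659 cKO barcodes. The cells kept numbered 7554 (median 12277 UMIs) and 8781 (median 11566 UMIs), respectively.

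The embryos also differed in sex. Xist, the transcript that silences an X chromosome in females, had 2 UMIs in the WT cells kept and 104780 in the cKO cells kept, whereas the Y-linked Uty had 7289 and 2 UMIs. Xist, Tsix and the Y-linked genes were left out of the comparisons, whereas other genes of the X chromosome stayed in. Sex and genotype cannot be told apart for any gene compared between the libraries. The libraries shared 22 barcodes, among them that of 1 WT Tfap2d-positive neuron. This WT barcode held 157251 UMIs and 11238 genes, against 34668 UMIs for the next largest WT member, and supplied 7.67% of all UMIs of the 147 WT cells. It carried 843 UMIs of endothelial and pericyte marker genes, while no other WT member had 5 or more, and the doublet caller did not mark it. The barcode of the same sequence in the cKO library held 1280 UMIs and none of these markers. Results that rest on this barcode are given with and without it.

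In the genome (GRCm38) Tfap2d lies on chromosome 1, from 19103022 to 19166346 on the plus strand. One of its 3 RefSeq promoters, each of 250 bases before and 50 after a start site, is shown because it precedes the gene that chose the cells. It spans chr1:19102772-19103071 (GRCm38.p6, plus strand). The consensus bound by AP-2 factors, GCCNNNGGC, which reads the same on both strands, was found in none of the 3.
Tfap2d promoter: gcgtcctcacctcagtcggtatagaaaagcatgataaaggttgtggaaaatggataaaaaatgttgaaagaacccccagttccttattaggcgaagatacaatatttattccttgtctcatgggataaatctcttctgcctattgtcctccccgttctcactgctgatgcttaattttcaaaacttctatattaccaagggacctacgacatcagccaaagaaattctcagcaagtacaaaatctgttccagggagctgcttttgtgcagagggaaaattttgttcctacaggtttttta

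Among all 32851 RefSeq promoters of the same length, 16.6% held the consensus, and 18.5% of gene symbols had a promoter that did. Of the 41 named genes that were at least 2-fold higher in Tfap2d-positive neurons than in other glutamatergic neurons of both libraries, 35 had a promoter in the table and 8 of them (22.9%) held a match, namely Fign, Gad2, Grik4, Negr1, Nr2f1, Sema3c, Slit2 and Zbtb20. Stretches around the matches of 4 of them are shown as examples, picked with their values known, with the consensus in capitals, on the strand of the gene. They lie at chr2:64098021-64098059 (minus strand) for Fign, chr3:156561783-156561821 (plus) for Negr1, chr5:17574705-17574743 (plus) for Sema3c and chr16:43247141-43247179 (plus) for Zbtb20. A match describes letters in the window and is not a binding site.
Fign: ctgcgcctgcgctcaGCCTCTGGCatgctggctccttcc
Negr1: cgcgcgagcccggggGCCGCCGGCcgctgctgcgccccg
Sema3c: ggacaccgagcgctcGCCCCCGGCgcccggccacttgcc
Zbtb20: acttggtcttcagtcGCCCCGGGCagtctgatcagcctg

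Nearly all Tfap2d-positive cells carried markers of the glutamatergic lineage, and some of them also progenitor genes, as described with the groups below. At least 1 UMI of Neurod2 or Neurod6, basic helix-loop-helix factors of dorsal glutamatergic neurons, was found in 99.3% of WT and 99.4% of cKO members, and at least 4 UMIs in 95.2% and 93.7%. The 8 genes of the glutamatergic list were all detected in both libraries, at a summed level of 2259 CPM (UMIs per 1000000 UMIs of the cells summed) in WT and 2324 CPM in cKO members, against 2450 and 2486 CPM in other glutamatergic neurons. The latter, used as the comparison throughout, were the 4799 WT and 4761 cKO cells with at least 4 UMIs of Neurod2 and Neurod6, no Tfap2d UMI and at most 1 UMI of the Dlx genes. Members were somewhat shallower, with a median of 11565 UMIs in WT and 10119 in cKO against 13439 and 12977.

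Midbrain identity was absent at this depth. The 6 midbrain genes of the list (Pou4f1, Pou4f2, En1, En2, Pax7 and Barhl1) summed to 2 UMIs in WT and 2 UMIs in cKO members. The thalamic list summed to 40 and 56 UMIs, with Gbx2 and Shox2 at 0 in both, and the list of Cajal-Retzius cells, the Reln-secreting cells of the marginal zone, to 48.3 and 58.7 CPM against 61.5 and 79.4 CPM in other neurons. The septal list summed to 44 UMIs in WT members, 37 of them in 1 cell, and to 11 UMIs in cKO members. Trp73 and Calb2, which define Cajal-Retzius cells, were at 0 in WT members, and Calb2 and Lhx5 in cKO members.

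The other markers in the working name of these cells, Tafa1, Tafa2, Epha6 and Lingo2, did not mark most of them. Tafa1 and Tafa2 encode small secreted chemokine-like proteins, Epha6 an ephrin receptor and Lingo2 a leucine-rich repeat membrane protein. None of these 4 genes had a UMI in 105 of 147 WT members (71.4%) and in 153 of 316 cKO members (48.4%), and 3 or all 4 of them were present in 6 WT (4.08%) and 54 cKO members (17.1%). Conversely, of the cells with at least 2 UMIs of Tafa1, only 4 of 24 in WT and 56 of 232 in cKO were Tfap2d-positive neurons. The cells are therefore called by their rule, and the Tafa1-bearing cells are described as a subset.

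Tfap2d-positive neurons were more frequent in the cKO library. They made up 1.95% of WT cells kept (exact Clopper-Pearson 95% interval 1.65 to 2.28%) and 3.60% of cKO cells kept (3.22 to 4.01%), a 1.85-fold ratio (exact conditional interval 1.52 to 2.26). The set was proposed with an uneven count in view, so this ratio is a description. Other glutamatergic neurons made up 63.5% of WT and 54.2% of cKO cells kept, and over all glutamatergic neurons the members' share was 2.87% in WT and 5.98% in cKO. The rule was sensitive at its edge: 68 WT and 90 cKO members held exactly 2 Tfap2d UMIs, and 179 WT and 226 cKO cells with exactly 1 UMI lay just outside. A further 4 WT and 12 cKO cells had enough Tfap2d but 2 or more Dlx UMIs.

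The ratio between the libraries was larger at higher limits of Tfap2d. It was 0.52 on the log2 scale at 1 UMI or more (326 WT and 542 cKO cells), 0.89 at 2 or more, 1.30 at 3 or more (79 and 226 cells) and 1.32 at 5 or more (38 and 110 cells). When each cell with at least 5000 UMIs was thinned to that number, which left out 834 WT and 1011 cKO cells, 66 WT (0.982%) and 191 cKO cells (2.46%) met the rule, a log2 ratio of 1.32. At full depth the median member of either library held 3 Tfap2d UMIs, with a range of 2 to 15 in WT and 2 to 28 in cKO. Cells of other types were used as a rough guide to free RNA, on the assumption that they lack the transcript. At least 2 Tfap2d UMIs were found in 1 of 548 WT (0.182%) and 1 of 796 cKO apical progenitor cells (0.126%). They were found in 2 of 908 WT (0.22%) and 8 of 1335 cKO Dlx-positive cells (0.599%), of which 9.25% and 9.74% were called doublets. None of 20 WT and 28 cKO endothelial cells held them, which allows a share of up to 16.8% and 12.3% (upper Clopper-Pearson ends). Free RNA, doublets and true expression in these cells were not told apart. Median depths in the apical progenitor cells were 13618 and 12965 UMIs and in the Dlx-positive cells 9208 and 8457 UMIs.

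**Figure D1:**
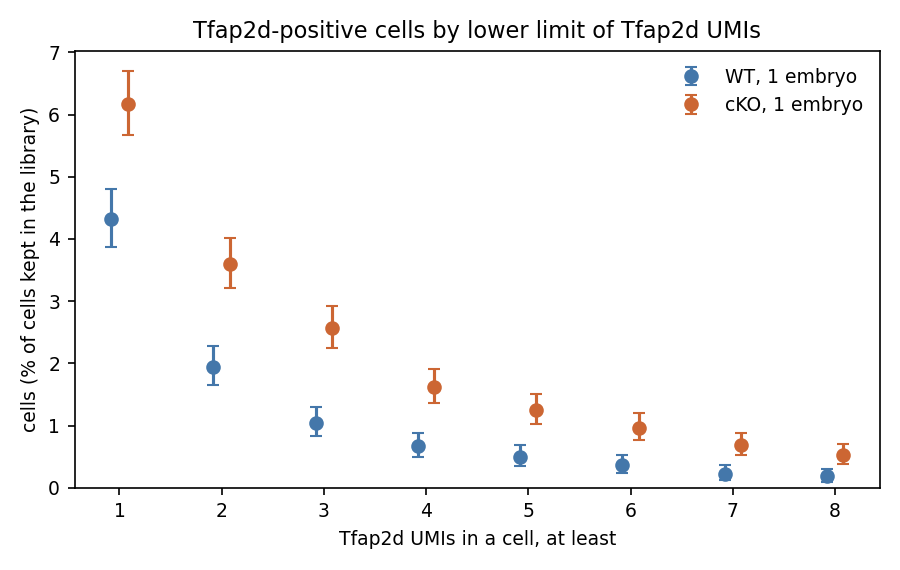
Share of cells kept that met the Dlx rule, in percent, against the lower limit of Tfap2d UMIs, for the WT (blue) and cKO (orange) library, 1 embryo each; bars are exact 95% binomial intervals and cover counting error only. The cKO points lie above the WT points at each limit from 1 to 8 UMIs, at 3.60% against 1.95% for the limit of 2 used here.

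The next comparison asked which genes set the Tfap2d-positive neurons apart from other glutamatergic neurons. Among 14258 genes with at least 100 UMIs over the cells compared, 346 (2.43%) were at least 2-fold higher and 299 (2.1%) at least 2-fold lower in members in both libraries, and without the large WT barcode the counts were 315 and 337 of 14234. The cells were chosen by Tfap2d, so these are descriptive values, and the lists were known from earlier work on these data.

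The members held no single regional signature. Of the hippocampal list, 2 of 8 genes compared were at least 2-fold higher, beside 2.43% of all genes. The list median was 0.20 on the log2 scale (both libraries summed) against 0.07 for all genes, and -0.029 when each cell had the same weight. Zbtb20, a zinc finger repressor of the hippocampal primordium, was present at 797 CPM in WT members (1634 UMIs) and 793 CPM in cKO members (3106 UMIs), against 300 and 214 CPM in other neurons, log2 ratios of 1.41 (1.34 to 1.48) and 1.89 (1.83 to 1.94). In both libraries the intervals of members and other neurons lay apart. Prox1, which specifies dentate granule neurons, stood at 5.85 CPM in WT (12 UMIs) and 6.64 CPM in cKO members (26 UMIs), and its log2 ratios of -0.24 (-1.20 to 0.58) and 0.51 (-0.12 to 1.09) both covered 0. Emx2, which promotes medial and caudal cortical fates, had ratios of 0.34 (0.00 to 0.67) and 0.08 (-0.20 to 0.35), and Grik4, a kainate receptor subunit enriched in CA3, of 1.88 (1.20 to 2.49) and 1.33 (0.76 to 1.85) on 24 and 34 UMIs.

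Genes of the piriform cortex, claustrum and amygdala included 4 of 9 past 2-fold upwards, beside 2.43% of all genes, with a list median of 1.02. This median was 0.67 with up to 3 Dlx UMIs allowed and 0.55 against Fezf2-positive neurons. Nr2f2 (COUP-TFII), a nuclear receptor of caudal and ventral telencephalic territories, was at 87.8 CPM in WT members (180 UMIs) and 304 CPM in cKO members (1190 UMIs), against 26.6 and 60.7 CPM in other neurons. Its log2 ratio to other neurons was 1.72 (1.49 to 1.94) in WT and 2.32 (2.23 to 2.42) in cKO, and the level in cKO members was also above that in WT members. Meis1, a homeobox cofactor, was at 36.1 and 32.9 CPM in members (74 and 129 UMIs) against 7.16 and 8.88 CPM, log2 ratios of 2.33 and 1.89. Etv1, an ETS factor, and Synpr, a synaptic vesicle protein, also passed 2-fold in both libraries, with ratios of 1.19 and 1.31 for Etv1 and 1.35 and 1.40 for Synpr. Slc17a6, which encodes the vesicular glutamate transporter VGLUT2, was at 215 and 168 CPM against 95 and 86.5 CPM and was just short of 2-fold in cKO (1.18 and 0.96).

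Other genes of the same list did not reach 2-fold upwards in both libraries. Nr4a2, the orphan nuclear receptor of the claustrum and subplate, had ratios of -0.28 (-0.93 to 0.30) and -0.36 (-0.75 to 0.02), and Id2, an inhibitor of basic helix-loop-helix factors, of -0.79 and -0.29. Lmo3 stood at -0.35 in WT and 0.23 in cKO. Tshz2, a zinc finger gene of the retrosplenial cortex, was at 77.1 CPM in WT members (158 UMIs) and 153 CPM in cKO members (601 UMIs) against 21.6 and 31.0 CPM, ratios of 1.84 and 2.31, while Lypd1 of the same list (7 and 14 UMIs) had intervals that covered 0.

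Neocortical layer genes were lower on balance, with a median of -0.46. Of 13 genes 1 was past 2-fold upwards and 4 downwards, beside 2.43% and 2.1% of all genes. Fezf2, the selector gene of subcerebral projection neurons, was at 45.4 CPM in WT (93 UMIs) and 48.2 CPM in cKO members (189 UMIs) against 169 and 155 CPM, log2 ratios of -1.90 (-2.21 to -1.60) and -1.68 (-1.90 to -1.47). Sox5, which acts in deep-layer neurons, had ratios of -1.21 and -1.05, Hs3st4, a heparan sulfotransferase of layer VI, of -3.75 and -1.77, and Crym, a thyroid hormone-binding protein, was at 2.44 and 1.02 CPM (5 and 4 UMIs) against 9.76 and 4.71 CPM. In contrast Cux2, a homeobox gene of upper-layer neurons and their precursors, was the gene past 2-fold upwards, at 227 and 220 CPM against 94.8 and 90.5 CPM (ratios of 1.26 and 1.28), and Unc5d, a netrin receptor of migrating multipolar neurons, stood at 1.11 and 0.86. Against the 2336 WT and 2262 cKO Fezf2-positive neurons in place of all other neurons, the median of the piriform, claustrum and amygdala list was 0.55.

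**Figure D2:**
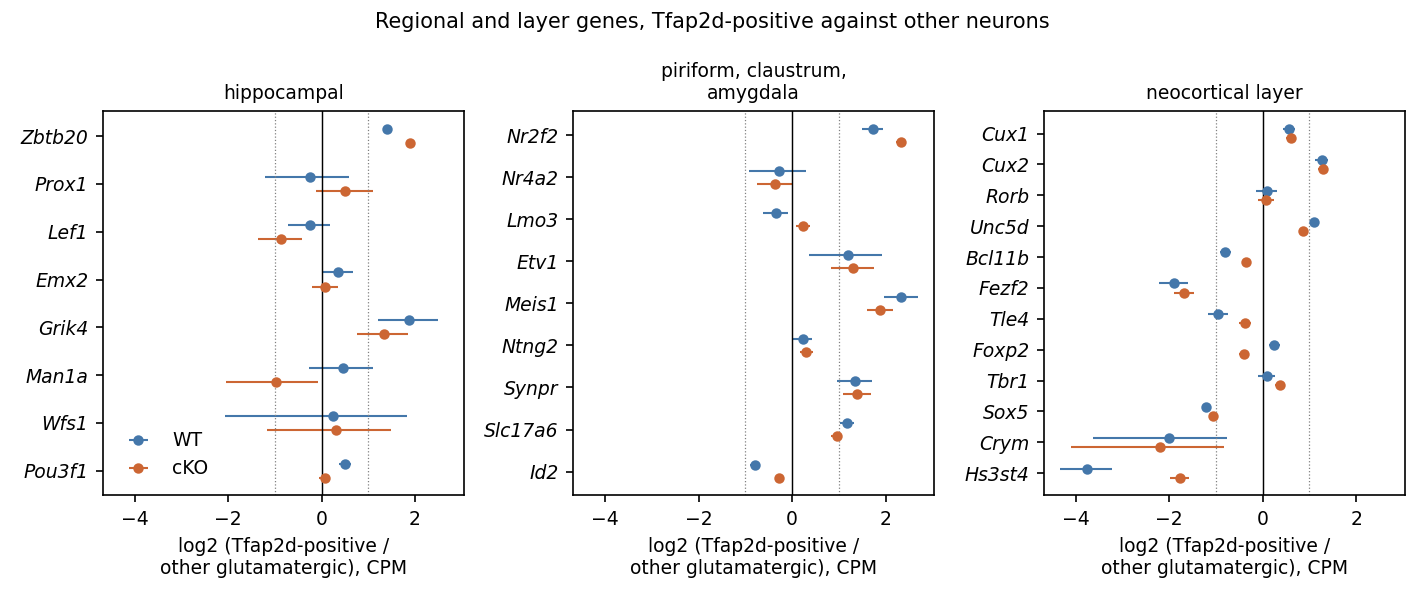
Log2 ratio of CPM in Tfap2d-positive neurons over other glutamatergic neurons for genes of 3 lists, in the WT (blue) and cKO (orange) library; lines are exact 95% intervals for counting error, dotted lines mark 2-fold. Zbtb20, Nr2f2, Meis1 and Cux2 lie past 2-fold to the right and Fezf2, Sox5 and Hs3st4 past 2-fold to the left in both libraries, whereas the intervals of Prox1 cover 0.

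Cortical area genes included Nr2f1 (COUP-TFI), which patterns the caudal cortex and was at 496 CPM in WT members and 739 CPM in cKO members against 226 and 301 CPM (ratios of 1.14 and 1.29). It was the only 1 of 8 genes of this list past 2-fold in both libraries, beside 2.43% of all genes higher and 2.1% lower. Lhx2 stood at 0.13 and -0.28 and Emx1 at -0.02 and -0.26. Of the AP-2 family, Tfap2a, Tfap2b and Tfap2e had no UMI in any member, and Tfap2c was at 16.1 and 19.1 CPM against 10.6 and 11.3 CPM, ratios of 0.60 (0.05 to 1.10) and 0.76 (0.40 to 1.11).

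The 15 genes with the largest ratios of members over other neurons, ranked by the smaller of the ratios in the libraries, were led by Fign, Thsd7a and Gcg. Fign, an AAA-type microtubule-severing ATPase, was at 65.9 CPM in WT (135 UMIs) and 126 CPM in cKO members (492 UMIs) against 4.47 and 8.58 CPM in other neurons, log2 ratios of 3.88 and 3.87. It had a UMI in 29.3% of WT and 43.7% of cKO members against 3.81% and 5.76% of other neurons, and after thinning to 5000 UMIs in 22.1% and 32.2% against 1.92% and 3.58%. Thsd7a, a thrombospondin-repeat membrane protein, stood at 3.79 and 4.46, Cbln2, a secreted synapse organiser, at 3.10 and 3.43, and Gcg, the proglucagon gene, at 3.19 and 3.66 on 24 and 81 UMIs. The homeobox genes Pbx3 (314 and 303 CPM against 43.5 and 51.3 CPM, ratios of 2.85 and 2.57) and Zfhx4 (ratios of 2.23 and 2.30) were in this group. Ebf1, an early B-cell factor of migrating neurons, stood at 2.66 and 3.50 with the large WT barcode and at 1.83 in WT without it.

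The 15 also included the genes below. Adarb2, an RNA-editing enzyme homologue that also marks caudal interneurons, had ratios of 2.99 and 2.77, Tmem117 of 3.16 and 2.53, Stk32a of 2.46 and 2.49, Arhgap18 of 2.87 and 2.55 and C79798 of 2.70 and 2.13. Unc13c and Slco1c1 rested in WT on the large barcode: without it Unc13c had 1 UMI in the other 146 WT cells and Slco1c1 a ratio of 1.51. Tafa1 had ratios of 4.64 in WT and 2.22 in cKO, but its UMIs came from 5 WT and 73 cKO members.

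Ranked the same way, 15 genes stood lowest in members. Rspo3, a Wnt signalling enhancer, was at 14.1 and 26.8 CPM in members against 163 and 165 CPM (ratios of -3.52 and -2.62), and Rgs6, a regulator of G-protein signalling, at 19.5 and 44.7 CPM against 181 and 233 CPM (-3.21 and -2.38). Inhba, an activin subunit, had ratios of -3.31 and -3.07, the potassium channel gene Kcna1 of -2.90 and -2.81 and Nap1l5 of -2.74 and -3.24. The nuclear receptor gene Nr4a3 had ratios of -4.07 and -2.63 and the melanocortin receptor gene Mc4r of -2.48 and -4.01. Those of Inhba, Kcna1, Nr4a3 and Mc4r rest on few molecules. Without the large WT barcode, no group of members described below held more than 5 WT or 9 cKO UMIs of any of them. Cacna1g, a T-type calcium channel subunit, was at 1 and 2 UMIs in members. Gpr22, Hs3st3b1, Cdkl2, the X-linked Cfap47, Spink13, Asic2 and Ndrg1 made up the others, with ratios between -3.44 and -2.31.

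Guidance and adhesion genes differed in both directions. Of the 38 axon guidance and adhesion genes, 7 were at least 2-fold higher and 2 lower in both libraries, and of 20 cadherins 4 were higher and 1 lower, beside 2.43% higher and 2.1% lower of all genes. Sema3c, a secreted semaphorin, was at 225 CPM in WT (462 UMIs) and 259 CPM in cKO members (1015 UMIs) against 59.8 and 56.3 CPM, ratios of 1.91 (1.77 to 2.05) and 2.20 (2.10 to 2.30). Negr1, an immunoglobulin-type adhesion protein, was at 1162 and 1019 CPM against 299 and 407 CPM (1.96 and 1.33), and Sema3a, Slit2 and Cntn5 also passed 2-fold upwards. The cadherin genes Cdh4 (1.72 and 1.35), Cdh10 (1.67 and 1.47), Cdh20 (2.23 and 2.03) and Pcdh10 (1.02 and 1.22) were higher, whereas Cdh13 was lower (-2.48 and -1.40).

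Opcml (101 and 152 CPM against 784 and 480 CPM, ratios of -2.96 and -1.66) and Efna3 (-1.15 and -1.24) were the guidance and adhesion genes past 2-fold downwards. Glutamate and GABA receptor genes were 1 higher (Grik4) and 4 lower of 22, beside the same 2.43% and 2.1% of all genes, with Grik3 at -1.79 and -1.60 and Grm5 at -1.17 and -1.22.

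Genes of other cell types were checked in the same cells. The GABAergic list summed to 157 CPM in WT and 157 CPM in cKO members against 36.5 and 48.2 CPM in other neurons, but Adarb2 made up 217 of 321 WT and 403 of 614 cKO UMIs. Gad2, a GABA-synthesising enzyme, was at 21.0 and 20.4 CPM against 3.43 and 4.65 CPM (ratios of 2.61 and 2.13), while Gad1 had 2 and 5 UMIs and the vesicular GABA transporter gene Slc32a1 had 0 and 4. Hemoglobin and other red blood cell genes summed to 67.8 and 98.0 CPM in members against 165 and 408 CPM in other neurons, where 1 WT cell held 5303 of 11321 and 1 cKO cell 9708 of 27103 UMIs. Microglial genes summed to 10 and 19 UMIs, with P2ry12 the most abundant. The endothelial list summed to 556 UMIs in WT members, of which 553 came from the large barcode, and to 22 UMIs in cKO members. The doublet caller marked 7 WT and 14 cKO members (4.76% and 4.43%). It marked 2.52% and 3.26% of other glutamatergic neurons and 3.36% and 4.24% of the cells kept.

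Of 6 cycling genes 3 passed 2-fold over other neurons, beside 2.43% of all genes, and the list summed to 374 CPM in WT and 371 CPM in cKO members against 144 and 182 CPM. At least 1 UMI of the list was found in 84 WT and 169 cKO members. At least 5 UMIs were found in 11 of 147 WT (7.48%) and 21 of 316 cKO members (6.65%), against 4.46% and 5.42% of other neurons. In groups 1 to 4 of the clustering described next the list stood at 55.3 to 112 CPM, below other neurons, and in the 23 cells of group 5 at 2579 CPM. Eomes, which defines intermediate progenitors, was at 293 CPM in WT (601 UMIs) and 219 CPM in cKO members (857 UMIs) against 159 and 142 CPM.

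The members fell into 5 groups when clustered on their own, without the genes of the rule. Group 1 (131 cells, 45 WT and 86 cKO) was led by Pdzrn3, Clstn2, Hs6st2 and Nrp1, and held Nrp1, a semaphorin co-receptor of migrating neurons, in 97% of its cells. Group 2 (125 cells, 58 WT and 67 cKO) was led by Neurog2, Kif26b, Agbl4 and Eomes, and 5 of the 7 intermediate progenitor genes were raised at least 1.5-fold over the other groups, so that it was intermediate progenitor-like. Also raised there were 4 of 8 apical progenitor genes (Sox2, Pax6, Vim and Fabp7) and 3 of 9 immediate early and stress genes (Fos, Egr1 and Ier2). Its cells also carried Neurod6 (96% of cells) and Dcx. Group 3 (116 cells, 27 WT and 89 cKO) was led by Ebf1, Tshz2, Fign, Adarb2, Thsd7a and Cbln2. Group 4 (68 cells, 9 WT and 59 cKO) was led by Tafa1, Tafa2, Lingo2 and Hs3st4, beside Il1rapl2, whose 187 UMIs came from 1 cell, and group 5 (23 cells, 8 WT and 15 cKO) by Hist1h1b, Top2a and Mki67, with all 6 cycling and all 8 apical progenitor genes raised. Of all 7607 genes with at least 100 UMIs in members, 1.51% were raised 1.5-fold in group 1, 4.94% in group 2, 3.76% in group 3, 7.22% in group 4 and 11.5% in group 5. Of the cells of group 5, 5 of 23 (21.7%) were called doublets, and their median depth was 16804 UMIs in WT and 20954 in cKO, against medians between 8803 and 12901 UMIs in the other groups. In group 4, 7 of 68 cells (10.3%) were called doublets. The part of doublets in these groups was not tested. Leading genes define the groups and are not findings about them.

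The groups divided the regional genes between them. Zbtb20 was at 1449 CPM in group 3 and 1054 CPM in group 2, at 921 CPM in group 5, and at 361 and 320 CPM in groups 1 and 4. Nr2f2 was at 549 CPM in group 3, with a UMI in 67% of its cells, at 250 CPM (60%) in group 4, 198 CPM (54%) in group 1, 95.4 CPM (36%) in group 2 and 86.9 CPM (35%) in group 5. In group 3, 5 of 12 genes of the piriform, claustrum and amygdala list were raised (Nr2f2, Cyp26b1, Meis1, Slc17a6 and Id2), Cyp26b1 on 12 UMIs. Among genes with at least 100 UMIs in members, 4 of 7 of the list and 286 of all 7607 (3.76%) were raised there, whereas only Nr2f2 was also among its 15 leading genes, and the group is not given a regional name. Prox1 was at 15.1 CPM in group 2, with a UMI in 14% of cells, and at 0 UMIs in group 4.

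Maturation genes separated group 4 from group 2. Stmn2 and Mapt, cytoskeletal genes of differentiating neurons, were at 1116 and 638 CPM in group 4, against 65.9 and 55.8 CPM in group 2. Of 22 glutamate and GABA receptor genes, 15 were raised in group 4, among them Grin2b and Gria1, and of 38 axon guidance and adhesion genes 18 were. Among genes with at least 100 UMIs in members these counts were 9 of 12 and 14 of 29, beside 549 of all 7607 genes (7.22%). The groups were made from these cells, so the counts describe them and test nothing. All 4 other label markers were raised in group 4, with Tafa2 in 82% and Lingo2 in 72% of its cells. Of the 13 neocortical layer genes 3 were raised there (Bcl11b at 646 CPM, Sox5 at 1692 CPM and Hs3st4) and 2 were lowered. Among genes with at least 100 UMIs in members 3 of 12 were raised, beside 7.22% of all genes. The deep-layer genes Fezf2 and Tle4 were not raised, at 51.8 and 115 CPM against 62.1 and 131 CPM in group 1. At clustering resolutions of 0.3 and 0.8 the group highest in Tafa1 held 4 WT and 27 cKO, and 7 WT and 50 cKO cells.

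**Figure D3:**
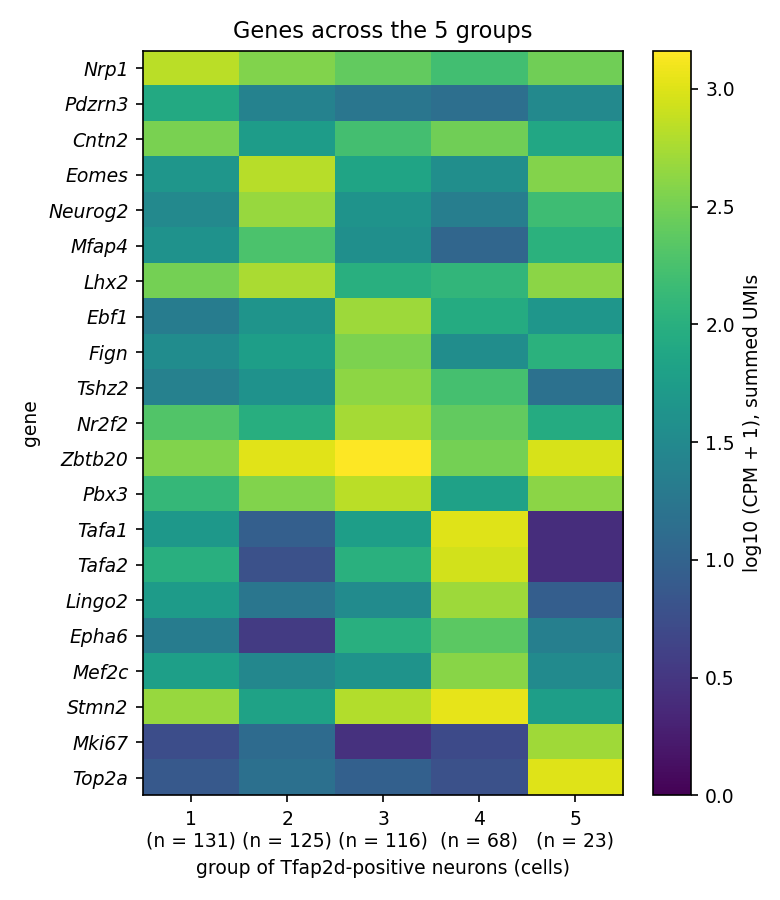
Summed level of genes that lead or distinguish the groups, as log10 of CPM + 1 (colour), in the 5 groups of Tfap2d-positive neurons, WT and cKO cells together and without the large WT barcode; the number of cells in each group before that barcode was left out is given below it. Tafa1, Tafa2 and Lingo2 are highest in group 4, Ebf1, Nr2f2 and Zbtb20 in group 3, Eomes and Neurog2 in group 2, and Mki67 and Top2a in group 5.

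The ratio between the libraries differed with the second gene that a member carried. The libraries were compared by single genes that the rule did not use, chosen after the groups had been seen. Several of them lead a group, and Nr2f2, Ebf1, Tshz2, Epha6 and Tafa1 themselves were over 2-fold apart in level between WT and cKO members, so a count of carriers does not separate the number of cells from the level of the gene per cell. Tfap2d-positive neurons with at least 2 UMIs of Eomes numbered 72 in WT (0.953% of cells kept) and 89 in cKO (1.01%), a log2 ratio of 0.09 (-0.38 to 0.56), and 0.88 (-0.02 to 1.83) on the 16 and 34 cells left by thinning to 5000 UMIs. Those with at least 2 UMIs of Slc17a6 numbered 102 and 146, a ratio of 0.30 (-0.07 to 0.68), and 1.11 (0.34 to 1.94) after thinning. At full depth both intervals covered equal shares, whereas after thinning that of Slc17a6 lay above 0 and both held the ratio of 1.32 seen over all members.

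Members that carried Nr2f2, Tshz2 or the label markers differed more between the libraries. The label markers, like the rule, were chosen with earlier results of these data known, among them an uneven cluster. Tafa1, Tafa2 and Lingo2 also lead group 4, which held 9 WT and 59 cKO cells. Their ratios are therefore descriptions and no independent evidence, and the intervals cover counting error only. Nr2f2-bearing members numbered 39 in WT and 147 in cKO, a log2 ratio of 1.70 (1.18 to 2.25) and 2.46 (1.53 to 3.53) after thinning. Those with Ebf1 numbered 21 and 68 (1.48, 0.75 to 2.26), those with Tshz2 15 and 89 (2.35, 1.55 to 3.25), those with Tafa2 14 and 78 (2.26, 1.43 to 3.20), those with Epha6 10 and 58 (2.32, 1.34 to 3.45) and those with Tafa1 4 and 56 (3.59, 2.15 to 5.52). Zbtb20-bearing members, 130 and 274, followed the count of all members, at 0.86 (0.55 to 1.17). The intervals of Nr2f2, Tshz2, Tafa2, Epha6 and Tafa1 lay above those of Eomes and Slc17a6 at full depth. After thinning the ratio was 2.46 (1.38 to 3.75) for Tshz2, 3.04 (1.56 to 4.99) for Tafa2, 3.55 (1.55 to 6.66) for Epha6 and 4.88 (2.30 to 10.2) for Tafa1, and of these genes and Nr2f2 only Tafa1, on 1 WT and 34 cKO cells, kept an interval apart from those of Eomes and Slc17a6.

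Carrier cells were themselves more frequent in the cKO library for Nr2f2 (561 WT and 1097 cKO cells that met the Dlx rule, with or without Tfap2d) and Tafa1 (24 and 232), and numbered 1413 and 1421 for Eomes. Within Nr2f2-bearing cells 6.95% of WT and 13.4% of cKO cells were Tfap2d-positive neurons, a log2 ratio of 0.95 (0.43 to 1.5), and within Tafa1-bearing cells 16.7% and 24.1%, a ratio of 0.53 (-0.90 to 2.46). For genes whose carriers were less uneven, Tafa2 (419 and 555 cells) and Lingo2 (472 and 625), the ratio within carriers was 2.07 (1.24 to 3.01) and 2.11 (1.12 to 3.24). It was 1.84 (1.04 to 2.74) within Tshz2-bearing, 1.69 (0.70 to 2.82) within Epha6-bearing and 0.30 (-0.17 to 0.77) within Eomes-bearing cells, the last of which became 1.12 (0.22 to 2.08) after thinning. Whether the dissections held the same parts of the cortex was not tested, and region sampled and genotype cannot be told apart.

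**Figure D4:**
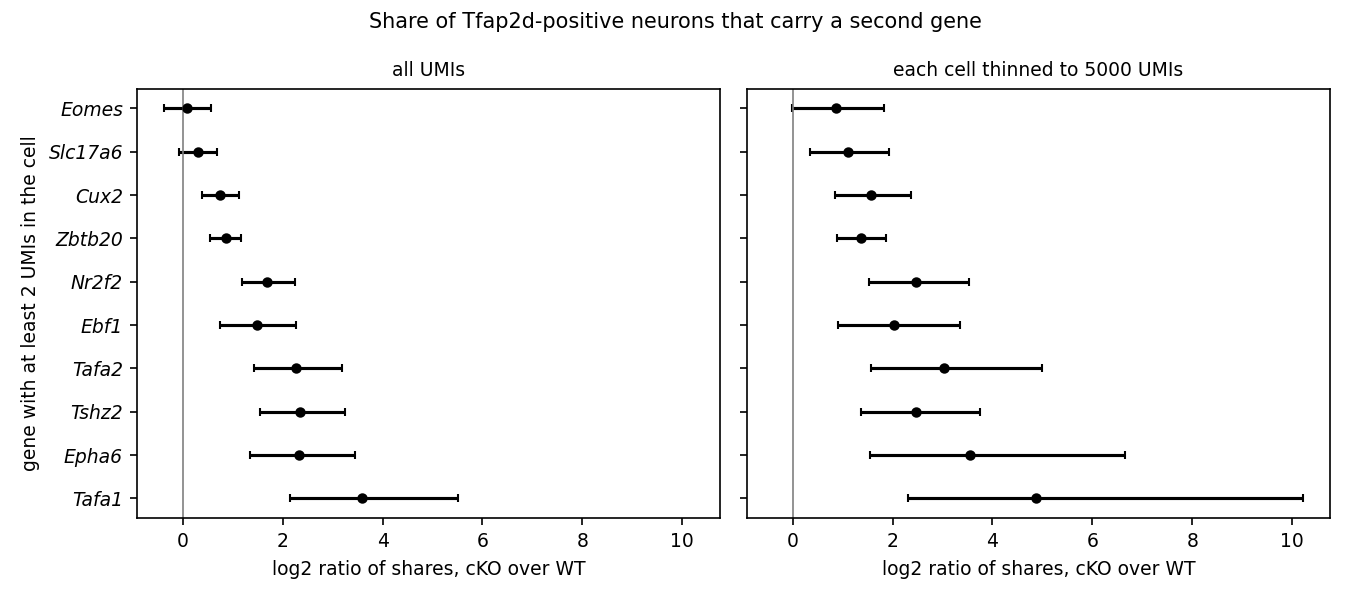
Log2 ratio, cKO over WT, of the share of cells kept that were Tfap2d-positive and held at least 2 UMIs of the gene named, at full depth (left) and with each cell thinned to 5000 UMIs (right); lines are exact 95% intervals for counting error. Eomes lies at 0.09 and 0.88, and Tafa1 farthest to the right at 3.59 at full depth.

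The last comparison set cKO against WT Tfap2d-positive neurons gene by gene. Of 7752 genes with at least 100 UMIs in members, 106 (1.37%) were at least 2-fold higher and 67 (0.864%) at least 2-fold lower in the cKO. In other glutamatergic neurons, whose UMIs were far more numerous, the same limit was passed by 17 (0.219%) and 7 (0.0903%) of these genes. With each cell thinned to 5000 UMIs, 36 genes were higher and 7 lower in cKO members. The 10 genes lowest in cKO relative to WT members were the vascular genes Ramp2, Igfbp7, Slc38a5, Bgn, Gng11, Cldn5, Col4a2, Kdr, Klf2 and Col4a1, of which Slc38a5 and Bgn are X-linked, with for example 187 Cldn5 UMIs in WT against 6 in cKO members. Without the large WT barcode 1 Cldn5 UMI was left in WT, 12 of 7607 genes (0.158%) were lower and 97 (1.28%) higher, and the values that follow leave it out. Genes of the X chromosome were 7 of these 97 (7.22%), 0 of the 12 and 284 of the 7607 compared (3.73%).

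Lhfpl3 had the largest ratio that was not owed to 1 cell. It was at 26.9 CPM in WT (51 UMIs in 12 cells) and 193 CPM in cKO members (756 UMIs in 66 cells), a log2 ratio of 2.84 (2.43 to 3.28), and in other neurons at 7.12 and 26.7 CPM (1.91, 1.76 to 2.06). Slit3, a secreted repellent for axons, was at 6.87 CPM in WT (13 UMIs) and 47.0 CPM in cKO members (184 UMIs), a ratio of 2.77 (1.96 to 3.71) against 0.08 in other neurons, but 10 of the 13 WT UMIs came from 1 of 4 cells. Adamts3, a procollagen peptidase, was at 28.5 CPM in WT (54 UMIs) and 114 CPM in cKO members (447 UMIs), a ratio of 2.00 (1.59 to 2.43) against 0.30, and had a UMI in 33 WT and 149 cKO members. Cntnap5a (2.64), Mctp1 (2.18), Mgat4c (2.11), Fam135b (1.96), Epha6 (1.89) and Tafa1 (1.88) followed, where 1 WT cell held 7 of 11 Cntnap5a, 6 of 12 Mgat4c and 66 of 135 Tafa1 UMIs. Il1rapl2, an X-linked gene at 4.58, owed 94.4% of its 198 cKO UMIs to 1 cell.

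Nr2f2 was also past 2-fold, at 83.5 CPM in WT (158 UMIs) and 304 CPM in cKO members (1190 UMIs), a ratio of 1.86 (1.62 to 2.11), and stood at 1.19 in other neurons. The ratio of Tafa1 was larger in other neurons, at 4.41 (4.20 to 4.63), although its levels there, 2.65 and 56.3 CPM, were below the 71.3 and 262 CPM of members.

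Some of these ratios were smaller once the groups were weighted. Each of the 5 groups was given the same weight in both libraries, namely its share of all members. The ratio was then 1.87 for Nr2f2, 1.53 for Adamts3, 2.51 for Lhfpl3 and 1.91 for Mctp1. It was 0.24 for Tafa1, 0.83 for Epha6 and 1.32 for Slit3. Tafa2 and Lingo2, at 0.51 and 0.43 in the plain comparison, were -0.86 and -1.0 under this weighting, which rests on 9 WT cells in group 4.

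Lower in cKO members was the potassium channel gene Kcnc2, at 65.0 CPM in WT (123 UMIs) and 19.7 CPM in cKO (77 UMIs), a log2 ratio of -1.73 (-2.16 to -1.30) and of -1.01 in other neurons. Luzp2 (-1.33), the TGF-β signalling inhibitor Smad7 (-1.31), Bcap29 (-1.22), the membrane-cytoskeleton linker Ezr (-1.13), the receptor kinase gene Alk (-1.12), Galntl6 (-1.11, with 43 of 51 WT UMIs in 1 cell), the potassium channel gene Kcnq5 (-1.11), Ooep (-1.10) and the granin Chga (-1.04) followed. Of the 4 immediate early and stress genes compared between genotypes, 2 were past 2-fold downwards in cKO with all members included, and none without the large barcode, where Fos, Egr1, Ier2 and Jun stood between -0.69 and -0.42 in members and between -0.77 and -0.27 in other neurons. Of the 10 lowest genes Kcnc2 alone was past 2-fold in other neurons, where Luzp2, Ezr, Alk and Kcnq5 stood between -0.73 and -0.55.

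**Figure D5:**
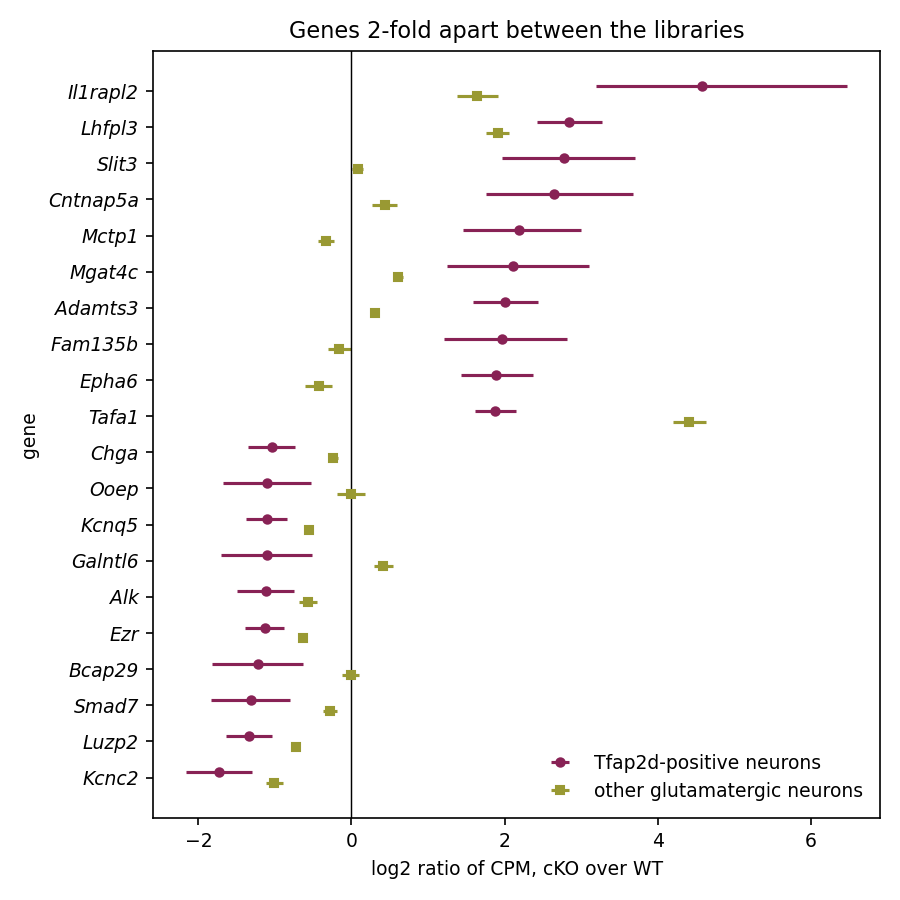
Log2 ratio of CPM, cKO over WT, in Tfap2d-positive neurons (purple circles, large WT barcode left out) and in other glutamatergic neurons (olive squares) for the 10 genes with the highest and the 10 with the lowest ratio in the former; lines are exact 95% intervals for counting error. Mctp1, Fam135b, Epha6 and Galntl6 lie on opposite sides of 0 in the 2 kinds of neuron, and the ratio of Tafa1 is larger in other neurons (4.41) than in Tfap2d-positive neurons (1.88).

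Regional and layer genes were also compared between WT and cKO members. With all members included, 0 of 3 hippocampal genes, 1 of 7 genes of the piriform, claustrum and amygdala (Nr2f2) and 1 of 12 layer genes (Hs3st4) were higher in the cKO and none of them lower, beside 1.37% higher and 0.864% lower of all genes. Of 2 genes compared of the retrosplenial and subicular list, Fn1 was lower, with 89 WT UMIs of which 13 were left without the large barcode. With the large barcode left out, Zbtb20 had a ratio of -0.09 (-0.17 to 0.00), Meis1 of -0.25 (-0.67 to 0.18), Slc17a6 of -0.45 (-0.63 to -0.27), Fezf2 of -0.01 (-0.38 to 0.36) and Prox1 of 0.19 (-0.88 to 1.36). Tshz2, of the retrosplenial list, was at 65.0 CPM in WT members (123 UMIs) and 153 CPM in cKO members (601 UMIs). Its ratio was 1.24 (0.96 to 1.53), or 0.66 with each group weighted the same in both libraries. Hs3st4 had a ratio of 1.76 (1.19 to 2.37) on 29 and 203 UMIs, or 0.41 with that weighting. Syncrip itself was at 300 CPM in WT (568 UMIs) and 337 CPM in cKO members (1319 UMIs), a ratio of 0.17 (0.02 to 0.31), and at 284 and 325 CPM in other neurons. Reads of a 3′ library come from the end of the transcript, outside the exons flanked by loxP, so this level does not check the deletion. Of the genes the study followed as Syncrip targets, Nfix was at 540 CPM in WT members and 374 CPM in cKO members with the large barcode included. Nfib was at 2692 and 2344 CPM. Both were lower than in other neurons of the same library (ratios of -1.13 and -1.40 for Nfix, -0.50 and -0.70 for Nfib). Without the large barcode, Nfix was at 77.4 CPM in group 3 and at 372 to 621 CPM in the other groups. Nfib was at 953 CPM in group 3 and at 2350 to 3368 CPM in the others. Group 3 made up 18.4% of WT and 28.2% of cKO members. The part of this group mix in the levels of Nfix and Nfib was not tested.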

How the data were processed

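The authors' deposited matrices held UMI counts per gene and barcode, made with Cell Ranger 7.0.0 per the file headers; the labels name the mouse build mm10, and the annotation is not given in the sources used here. Groups follow the sample labels, and the bulk and binding libraries of the series were not used. Counts were summed per library and divided by the summed UMIs (CPM). Shares carry exact Clopper-Pearson intervals and ratios exact conditional intervals at a confidence level of 95%; a ratio against a count of 0 was set to a floor of 3 counts. No test was run, with 1 embryo per genotype. Doublets were called with Scrublet but kept. Members, gene lists and comparisons were chosen with earlier results of these data known. Genes that could be named were those of the lists, the 15 largest rises and falls of members against other neurons in the library where they moved less, and the 10 largest rises and falls between genotypes, among genes with 100 UMIs, without predicted, Y-linked, mitochondrial and rule genes, Xist and Tsix (other X-linked genes stayed in). Members were clustered on 2000 variable genes, 20 principal components and 15 neighbours (Leiden, resolution 0.5; scanpy 1.11.5, Python 3.11.15, numpy 2.4.6, scipy 1.17.1); group levels were compared after adding 10 CPM, and genes with at least 50 UMIs in a group could lead it. Count comparisons were checked on simulated counts, and the outcome of that check is not reported here. Promoters came from RefSeq (GRCm38.p6), coordinates of Tfap2d from GENCODE. Alternatives changed the limits on Tfap2d, Dlx, genes and UMIs, the comparison cells, the weights and the fold limit, thinned each cell to 5000 UMIs and left out doublets; leaving out cells with vascular markers or shared barcodes was added after the data were seen. Some results are not reported here, while the counts and medians of lists cover all their genes.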

Additional observations from a re-analysis of the deposited data

Results flagged for a closer look

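Among the genes named as different between cKO and WT Tfap2d-positive neurons, 4 moved the opposite way in other glutamatergic neurons, with both counting intervals away from 0. Mctp1, a calcium-binding membrane protein, had a log2 ratio of 2.18 in Tfap2d-positive neurons and -0.33 in other neurons. Fam135b had 1.96 and -0.16, the ephrin receptor gene Epha6 1.89 and -0.43, and Galntl6, a glycosyltransferase gene, -1.11 and 0.42. With 1 library per genotype the difference between the 2 kinds of neuron was not tested. For Galntl6, 43 of its 51 WT UMIs came from 1 cell. The genes rested on 12, 11, 15 and 6 WT members and 50, 34, 79 and 22 cKO members with a UMI. With each of the 5 groups given the same weight in both libraries, the ratios of the members were 1.91, 1.04, 0.83 and -2.18.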

How the results depend on the processing

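Over all alternatives run the log2 ratio of the share of Tfap2d-positive neurons stayed above 0, between 0.52 and 1.32. It was 0.52 with at least 1 UMI of Tfap2d, 1.30 with at least 3 and 1.32 with each cell thinned to 5000 UMIs. Genes higher in members than in other neurons numbered 532 with at least 1 UMI of Tfap2d, 552 with at least 50 UMIs per gene and 928 at a 1.5-fold limit, where 656 were lower. Genes higher in cKO than in WT members numbered 64 with at least 1 UMI of Tfap2d, 36 after thinning, 182 with at least 50 and 42 with at least 300 UMIs per gene, and 345 at a 1.5-fold limit. Those lower numbered 7 after thinning, 172 with at least 50 and 10 with at least 300 UMIs per gene, 219 at a 1.5-fold limit, 10 without cells of 5 or more endothelial or pericyte UMIs and 12 without barcodes shared by the libraries, both of which remove the large WT barcode. The hippocampal median was -0.029 with each cell weighted equally, on the other side of 0 from its value of 0.20. The median of the piriform, claustrum and amygdala list was 0.67 with up to 3 Dlx UMIs and 0.55 against Fezf2-positive neurons. Apart from the removal of that barcode, the cause of these moves was not tested. The neocortical layer median stayed between -0.59 and -0.25. No paired analysis was possible because each genotype had 1 library and the results come from no test. Depth limits genes under about 100 UMIs and the 9 WT cells of the Tafa1-led group.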
